A study of Mus musculus with 6 samples.

Results

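Marker genes of blood vessels, red blood cells and macrophages were followed in the dorsal midbrain of *Ezh2* cko and control embryos at E10.5. The 30 genes were listed by lineage, with 11 endothelial, 7 erythroid and 12 macrophage markers, and all 30 were found among the 18193 genes that have a probe set of their own on the array. A probe set is a group of short probes read as 1 value. Where a gene had several, the one with the highest mean over the 6 arrays represented it, so the 30 values were chosen from 48 probe sets. Of the 18 probe sets not chosen, which belong to 9 genes, 6 had a difference of the other sign and none passed the test. Total RNA of 3 *Ezh2* cko and 3 control samples was measured on Affymetrix A430 arrays, each sample on an array of its own. *Ezh2* cko embryos were *Wnt1-Cre*+ and homozygous for the *Ezh2*[SET]lox allele, so that Cre removes the part of *Ezh2* encoding the catalytic SET domain. The controls, by the methods, were littermates that either lacked *Wnt1-Cre* and were *Ezh2*[SET]lox/lox, or carried *Wnt1-Cre* with 1 wild-type allele. The labels call every control WT and do not tell the kinds apart. All embryos had a C57BL/6 background. By the methods, the 3 samples of each group came from more than 1 but fewer than 3 litters, so some samples of a group share a litter. The labels do not assign samples to litters. The p-values therefore measure the spread between these samples, some of which are littermates.

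*Wnt1-Cre* is active in the dorsal midbrain and in the neural crest. Endothelium, primitive red blood cells and the first brain macrophages are not neural. They come from mesoderm and yolk sac and reach the neural tube with its vessels, so they lie outside the lineage in which *Wnt1-Cre* is known to act. At this stage vessels sprout into the neuroepithelium from the plexus around it. The circulating red cells are the large nucleated cells of the yolk sac, which carry embryonic globins. Yolk sac macrophages, the forerunners of microglia, have begun to enter the brain. A dissected midbrain can hold all of these, in amounts that were not measured. In such bulk RNA fewer cells of a type and less RNA per cell cannot be told apart.

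Signals are log2 values after RMA, the submitters' normalization. Such a value has no level that marks absence, so the labelled tissue could not be checked by absent markers and each probe set was compared only with itself. *Ezh2* had a log2 signal of 11.79, 11.74 and 11.72 in the *Ezh2* cko, against 11.69, 11.76 and 11.66 in controls (limma adjusted p = 0.918). Where its probe set lies relative to the removed exons is not known from the tables used, so it does not check the deletion. The study reports, from antibody staining, that Ezh2 protein was lost in the mutant midbrain by E10.5. Over all pairs of arrays the signals correlated at 0.993 to 0.997 (Pearson's r across probe sets, which are not independent replicates). Control replicate 1 was the lowest array by the median of several marker lists, though not of the blood-brain barrier, megakaryocyte, granulocyte or neural progenitor lists, and by the granulocyte list it was the highest. When the mean of the 6 arrays was subtracted from the log2 signal of each gene, the list of 19 neuron markers had a median of -0.08, 0.16 and 0.42 in the *Ezh2* cko, against -0.45, -0.07 and 9.9e-05 in controls. The list of 14 mesenchyme markers had 0.03, 0.09 and 0.25 in the *Ezh2* cko, against -0.39, 0.09 and -0.01 in controls.

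None of the 30 genes rose or fell in the *Ezh2* cko midbrain at a Benjamini-Hochberg adjusted p under 0.05 from limma, in a table where 0.189% of all probe sets and 0.302% of all genes passed, 0.184% of probe sets as higher and 0.00444% as lower in the *Ezh2* cko. The smallest adjusted p of a member was 0.309, for *Mrc1*. None passed the call rule of the methods, which sets a minimum fold together with an unadjusted p limit of 0.01, where 0.407% of all genes and 0.26% of all probe sets passed. At an unadjusted p under 0.05, 2 of the 30 passed, *Mrc1* and *Csf1r*, where 8.87% of all genes did. The methods give an unpaired t-test for the study, but name no test for the arrays. With this t-test none of the 30 passed after adjustment. An unadjusted p under 0.05 was found for 1 of the 30, where 3025 of 45037 probe sets had it. The lineages differed in their medians. The median log2 difference, *Ezh2* cko minus control, was 0.20 for the macrophage, 0.05 for the endothelial and -0.02 for the erythroid members, beside -0.02 for all genes, and the differences between lineages were not tested. Of the macrophage members 11 of 12 had a positive difference, of the endothelial 8 of 11 and of the erythroid 3 of 7, where 43.1% of all genes did.

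**Figure D1:**
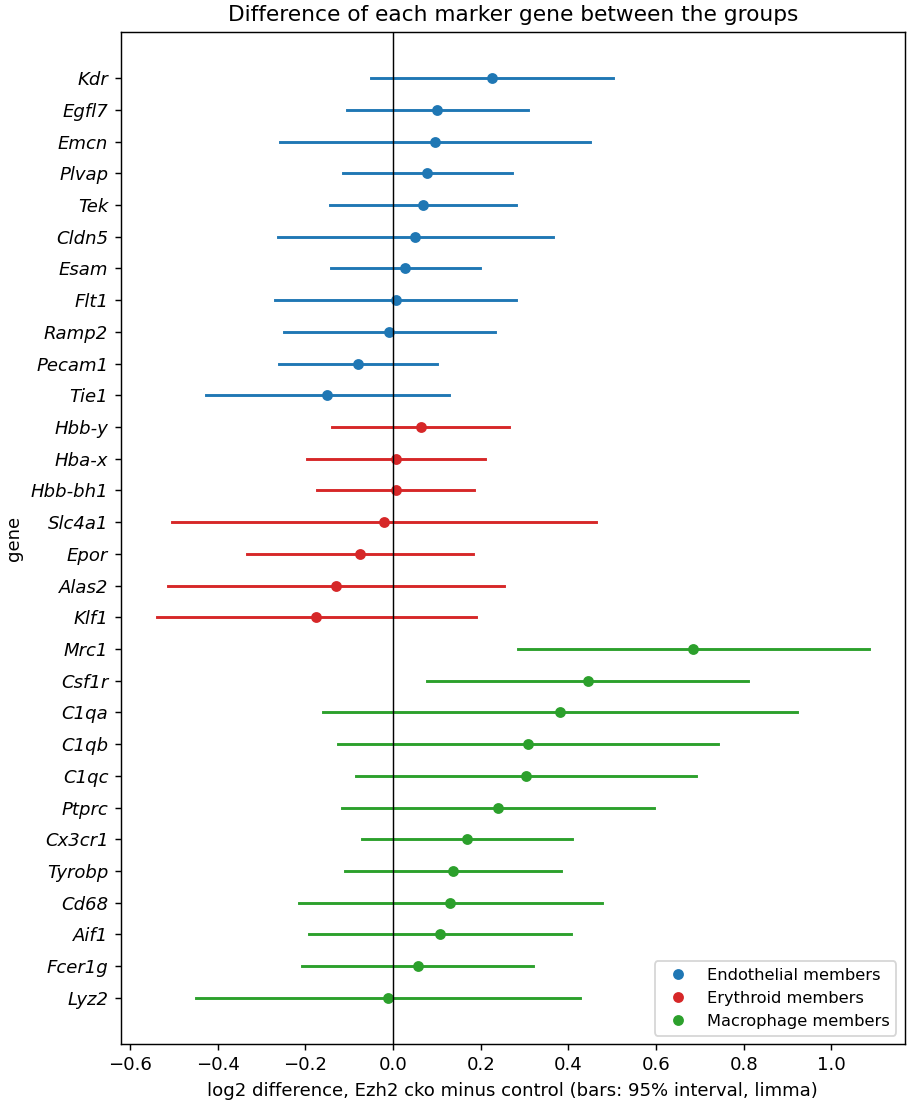
Log2 difference, *Ezh2* cko minus control, of each of the 30 marker genes (x axis), with the 95% interval from limma as a bar, by gene (y axis) and lineage (color). The bars of *Mrc1* and *Csf1r* lie wholly to the right of 0, and the bars of all other genes cross it.

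Macrophage genes had the largest differences of the 30, and their range over the 6 arrays had a median of 0.78 log2 units, beside 0.31 for all genes. *Mrc1*, which encodes the mannose receptor CD206 of tissue-resident macrophages, had log2 signals of 7.33, 7.25 and 7.50 in the *Ezh2* cko, against 6.23, 6.86 and 6.93 in controls. Every *Ezh2* cko array lay above every control, and control replicate 1 was far below the other controls. The log2 difference was 0.69 (95% interval 0.28 to 1.09, a fold of 1.61, unadjusted p = 0.00402, adjusted p = 0.309 from limma). Without control replicate 1 it was 0.46 (unadjusted p = 0.00196, adjusted p = 0.312). *Mrc1* kept a positive difference in all 15 alternatives that gave it a value, between 0.46 and 0.81, and in none of them did it pass the adjusted p. Several of them could not change the difference. The t-test, the prior, the dim filter and the replicate block alter only the test, and *Mrc1* has 1 probe set to choose from.

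*Csf1r* encodes the receptor for CSF1 and IL-34, on which macrophages and microglia depend. Its log2 signal was 9.36, 9.35 and 9.59 in the *Ezh2* cko, against 8.61, 9.10 and 9.27 in controls. Again the groups did not overlap and control replicate 1 was the lowest array. The log2 difference was 0.44 (95% interval 0.08 to 0.81, adjusted p = 0.557), and 0.25 without control replicate 1 (adjusted p = 0.778). Its other probe sets gave 0.17 and -0.02. *Mrc1* and *Csf1r* were thus the members whose groups did not overlap, 2 of 30 toward higher signal and 0 of 30 toward lower signal, where 7.52% and 7.88% of all genes did so. With 5 arrays, groups separate more often, and these counts were made after seeing the data. The macrophage count was 5 of 12 without *Ezh2* cko replicate 2, where 10.9% of all genes were wholly higher in the *Ezh2* cko, and 5 of 12 without control replicate 3, where 11.96% were. It stayed at 2 without each other array. The endothelial count was 4 of 11 without *Ezh2* cko replicate 3, where 11.6% of all genes were, and 0 without each other array.

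The 3 chains of complement C1q, which start the classical complement pathway and are made in the brain mainly by microglia and other macrophages, are encoded by neighboring genes. *C1qa* was at 6.61, 6.53 and 6.86 in the *Ezh2* cko, against 5.66, 6.63 and 6.57 in controls. *C1qb* was at 7.20, 7.37 and 7.80 in the *Ezh2* cko, against 6.80, 7.20 and 7.44 in controls. *C1qc* was at 6.34, 6.05 and 6.26 in the *Ezh2* cko, against 5.49, 6.12 and 6.12 in controls. In all 3 genes the lowest array was control replicate 1, and the other controls lay within the range of the *Ezh2* cko arrays, except that *C1qb* on control replicate 2 equalled the lowest of them to the printed decimals. The log2 differences were 0.38, 0.31 and 0.30 for *C1qa*, *C1qb* and *C1qc* (adjusted p-values 0.780, 0.779 and 0.754). Without control replicate 1 they were 0.07, 0.13 and 0.09 in the same order.

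The other macrophage members gave smaller differences, all with overlapping groups. *Ptprc*, which encodes the pan-leukocyte phosphatase CD45, had a log2 difference of 0.24 (adjusted p = 0.792). Its other probe set gave -0.28 (adjusted p = 0.543) with every *Ezh2* cko array below every control. That probe set was dim, with means of 3.26 in the *Ezh2* cko and 3.54 in controls, where the median of all values was 5.70. *Cx3cr1*, which encodes the fractalkine receptor of microglia, had 0.17. Its other probe set, also dim with means of 4.19 in the *Ezh2* cko and 4.39 in controls, gave -0.20. *Tyrobp*, which encodes the adaptor DAP12, had 0.14. *Cd68*, which encodes a lysosomal glycoprotein, had 0.13, *Aif1*, which encodes IBA1, 0.11 and *Fcer1g*, which encodes an Fc receptor chain, 0.06. *Lyz2*, which encodes lysozyme of myeloid cells, was the 1 member with a negative difference, -0.01 (95% interval -0.45 to 0.43). Adjusted p-values of the 6 genes other than *Ptprc* lay between 0.780 and 0.996.

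The array on which a macrophage gene was lowest was nearly always the same. Control replicate 1 was the lowest array for 11 of the 12 genes, where it was the lowest for 20.5% of all genes, and *Cd68* was the exception. *Ezh2* cko replicate 3 was the highest array for 8 of the 12, where it was the highest for 16.6% of all genes. As a log2 deviation, the median over the 12 genes was 0.14, 0.0050 and 0.19 in the *Ezh2* cko, against -0.43, -0.08 and 0.11 in controls. Without control replicate 1 the median log2 difference of the lineage was 0.07 and 9 of 12 differences were positive. It was 0.13 without *Ezh2* cko replicate 3 and 0.31 without control replicate 3. The neuron and mesenchyme lists were lowest on the same control and highest on the same *Ezh2* cko array. All 19 neuron markers were measured, with a summed signal of 92.7 to 128% of the mean array in the *Ezh2* cko, against 75.6 to 97.4% in controls. For the mesenchyme markers, of which 14 of 15 were measured, the summed signal was 104 to 119% in the *Ezh2* cko, against 75.9 to 99.0% in controls. A sum of linear signals follows the brightest genes of a list most, and by the median deviation the mesenchyme groups overlapped. The part of the neuron or mesenchyme signals in the macrophage values was not tested.

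**Figure D2:**
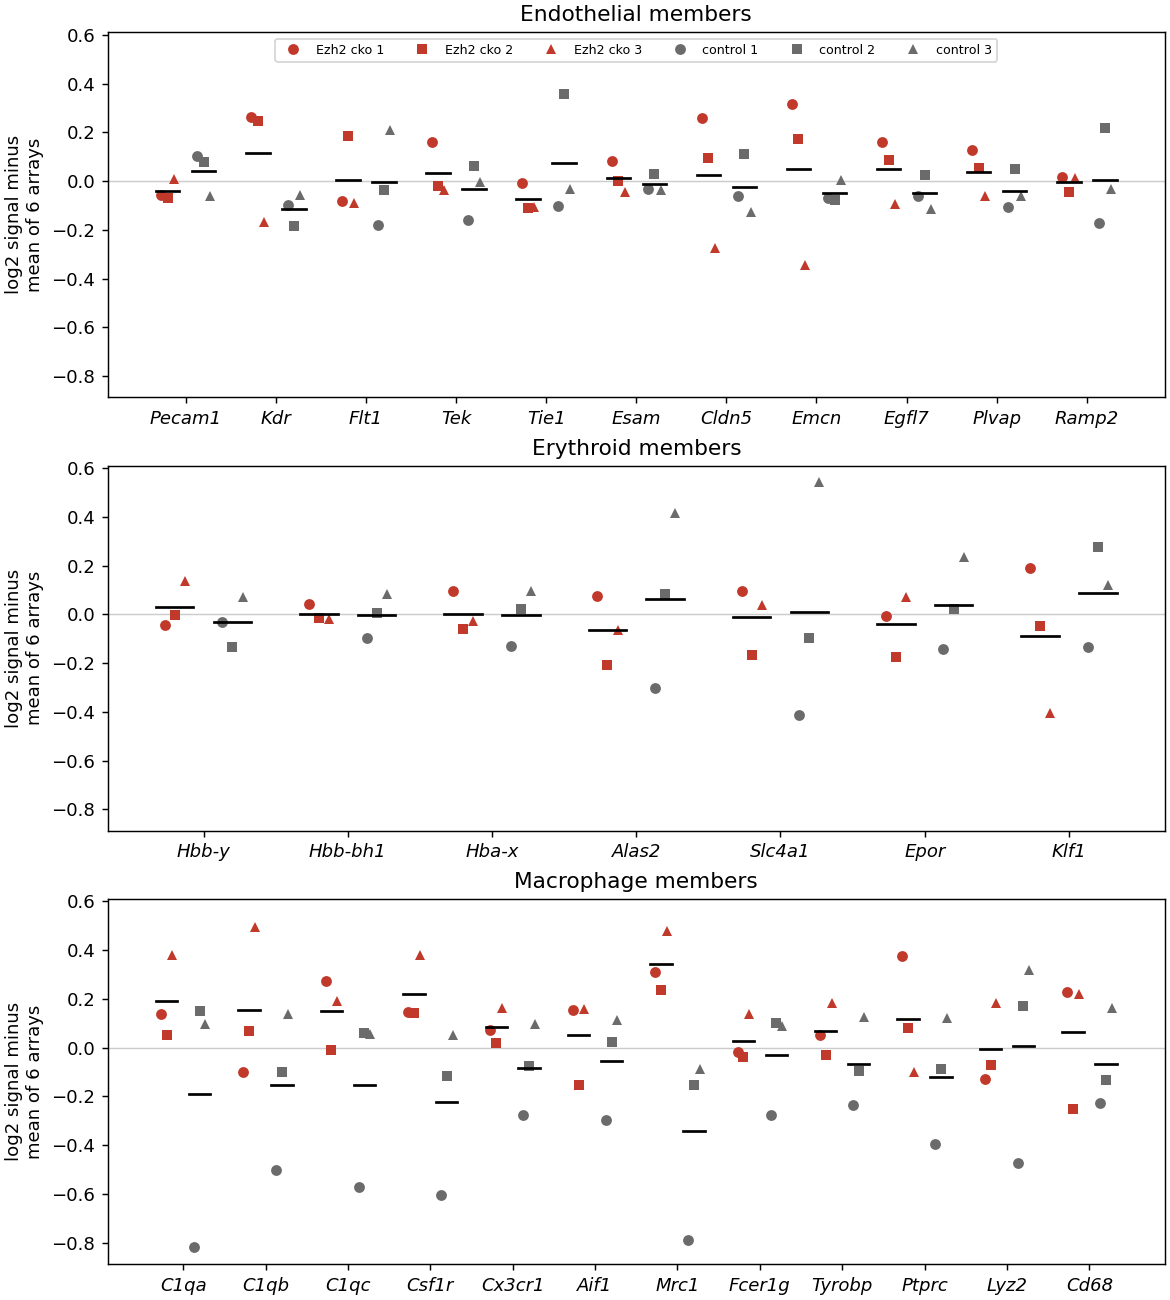
Log2 signal minus the mean of the 6 arrays (y axis) for each member (x axis), on 3 *Ezh2* cko arrays (red) and 3 control arrays (grey), with group means as black lines and marker shape giving the replicate number. Control replicate 1 is the lowest point of 11 of the 12 macrophage genes, while the endothelial points mix.

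A separate list of 40 other macrophage genes, none of them a member, had a median nearer to that of all genes. Its median log2 difference was 0.03, with 23 of 40 positive and none past the adjusted p, and control replicate 1 was the lowest array for 18 of the 40. Many of the 40 were dim, with group means below 5.70, the median of all values, while 29 of the 30 members passed the dim filter. The part of dim probe sets in the median of this list was not tested. *Lyve1*, which encodes a hyaluronan receptor of lymphatic vessels and of some tissue macrophages, was on this list, and the study picked it from these arrays. Its probe set with the higher mean gave a log2 difference of -0.17 (adjusted p = 0.712). The other was at 4.29, 4.01 and 5.03 in the *Ezh2* cko, against 3.38, 3.83 and 3.16 in controls. The fold of 1.99 met the methods' rule but its adjusted p was 0.325, so the probe sets of this gene disagree.

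Promoter sequences from RefSeq (GRCm38.p6) were at hand for 21 of the 30 members. There was none for *Pecam1*, *Esam*, *Plvap*, *Ramp2*, *Hbb-bh1*, *Slc4a1*, *C1qa*, *Csf1r* or *Tyrobp*. The myeloid factor PU.1 binds purine-rich sites with the core GAGGAA. This core, on either strand, lay in the 250 bases before the start of 6 of 9 macrophage, 3 of 7 endothelial and 1 of 5 erythroid genes, where 25.9% of all genes had it. The 200 bases before the start of *Mrc1*, the member with the largest difference, and of *C1qb* are given with each match in capitals, read 5′ to 3′ on the strand of the gene.
Mrc1 (chr2:14229214-14229413, plus strand): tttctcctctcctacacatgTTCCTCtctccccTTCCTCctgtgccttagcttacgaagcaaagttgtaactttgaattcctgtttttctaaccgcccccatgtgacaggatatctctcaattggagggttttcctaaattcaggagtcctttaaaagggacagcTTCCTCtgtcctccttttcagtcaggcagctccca
C1qb (chr4:136886201-136886400, minus strand): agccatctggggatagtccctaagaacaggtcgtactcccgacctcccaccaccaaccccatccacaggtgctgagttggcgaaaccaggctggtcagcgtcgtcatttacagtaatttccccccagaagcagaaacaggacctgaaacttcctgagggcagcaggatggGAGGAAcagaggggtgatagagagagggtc
*Mrc1* had 3 matches, which begin 180, 167 and 35 bases before its start and read TTCCTC on the strand of the gene, and *C1qb* had 1, at 30 bases. A match describes letters, not binding.

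No red cell gene passed the test, the groups overlapped for all 7, and the globins gave signals near the top of the scale. *Hbb-y*, which encodes the embryonic beta-like globin epsilon-y, was at 14.55, 14.59 and 14.73 in the *Ezh2* cko, against 14.56, 14.46 and 14.67 in controls. *Hbb-bh1*, which encodes the other embryonic beta-like globin, was at 14.56, 14.50 and 14.50 in the *Ezh2* cko, against 14.42, 14.52 and 14.60 in controls. *Hba-x*, which encodes the embryonic alpha-like globin zeta, was at 14.33, 14.18 and 14.21 in the *Ezh2* cko, against 14.11, 14.26 and 14.33 in controls. The groups overlapped in all 3, with log2 differences of 0.06, 0.01 and 0.01 (adjusted p-values 0.919, 0.995 and 0.995). The highest value of any probe set on an array was between 14.66 and 14.74, and RMA itself brings the highest values of arrays close together. On *Ezh2* cko replicate 3 the highest value was that of *Hbb-y*. Whether probe sets this bright can follow more globin RNA was not tested. *Hbb-y* and *Hbb-bh1* are related genes of 1 cluster, and the probe set used for *Hbb-y* is of a kind that may also bind related transcripts.

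The remaining erythroid genes had lower signals than the globins and varied more. The part of the signal level in this was not tested. Over the 6 arrays the globins spanned 0.18 to 0.27 log2 units and the other 4 genes 0.41 to 0.96. *Slc4a1*, which encodes the red cell anion exchanger band 3, was at 10.75, 10.49 and 10.69 in the *Ezh2* cko, against 10.24, 10.56 and 11.20 in controls. *Alas2*, which encodes the first enzyme of heme synthesis in red cells, was at 8.76, 8.48 and 8.62 in the *Ezh2* cko, against 8.38, 8.77 and 9.10 in controls. For both, the controls spanned more than the *Ezh2* cko arrays, which lay between control replicates 1 and 3. *Epor*, which encodes the erythropoietin receptor, was at 7.97, 7.81 and 8.05 in the *Ezh2* cko, against 7.84, 8.002 and 8.22 in controls. *Klf1*, which encodes a transcription factor of red cell genes, was at 9.34, 9.10 and 8.74 in the *Ezh2* cko, against 9.01, 9.42 and 9.27 in controls, and was the 1 erythroid gene that was lowest on *Ezh2* cko replicate 3. The log2 differences were -0.02 for *Slc4a1*, -0.13 for *Alas2*, -0.08 for *Epor* and -0.17 for *Klf1*, with adjusted p-values between 0.855 and 0.992. The 95% interval of *Slc4a1*, the widest of the lineage, was -0.50 to 0.46.

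The lineage had no stable direction. Its median log2 difference was -0.17 without control replicate 1, but 0.05 without control replicate 3 and 0.02 without *Ezh2* cko replicate 2. It was -0.07 without *Ezh2* cko replicate 1 and without control replicate 2. Of its 7 differences, 3 were positive with all arrays, 6 without control replicate 3 and 1 without either control replicate 1 or *Ezh2* cko replicate 1. Control replicate 3 was the highest and control replicate 1 the lowest array for 4 of 7 members each. Among 21 other erythroid genes that were measured of 30 listed, such as those for the factor GATA1 and for membrane proteins, control replicate 3 was the highest array for 14 and control replicate 1 the lowest for 14. Over all genes these shares were 10.6% and 20.5%. None of the 21 passed the adjusted p, and their median log2 difference was -0.06, or 0.09 without control replicate 3, 0.02 without *Ezh2* cko replicate 2, -0.11 without *Ezh2* cko replicate 1 and -0.18 without control replicate 1. It was -0.02 without *Ezh2* cko replicate 3.

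**Figure D3:**
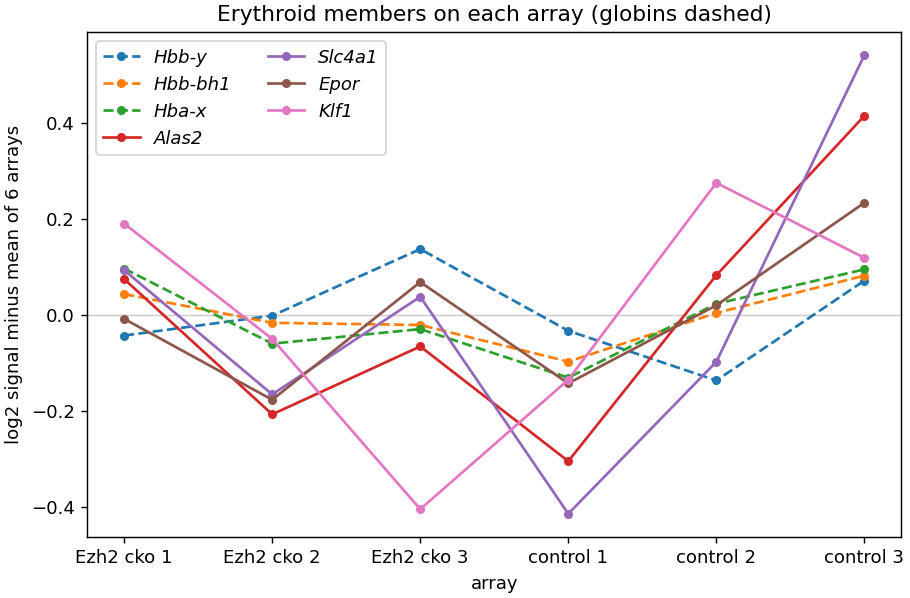
Log2 signal minus the mean of the 6 arrays (y axis) of the 7 erythroid members on each array (x axis), 1 line per gene and globins dashed. *Slc4a1*, *Alas2* and *Epor* are highest on control replicate 3, and each globin line spans at most 0.27 log2 units.

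Red cell promoters are known for GATA sites and CACCC boxes, and KLF1 binds CACCC boxes. CACCC, on either strand, lay in the 250 bases before the start of 5 of 5 erythroid, 6 of 7 endothelial and 6 of 9 macrophage members, where 54.5% of all genes had it. AGATAA lay before 2 of 5 erythroid members, *Alas2* and *Epor*, before 0 of 7 endothelial and 1 of 9 macrophage members, where 11.4% of all genes had it. The 200 bases before a globin gene and before *Alas2* are given with both motifs in capitals, since these genes stand for the narrow and the wide signals of the lineage.
Hbb-y (chr7:103853208-103853407, minus strand): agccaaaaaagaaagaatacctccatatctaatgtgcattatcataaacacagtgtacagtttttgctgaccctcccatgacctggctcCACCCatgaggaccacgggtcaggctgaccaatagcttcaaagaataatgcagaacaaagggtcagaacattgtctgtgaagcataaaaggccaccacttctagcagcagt
Alas2 (chrX:150547217-150547416, plus strand): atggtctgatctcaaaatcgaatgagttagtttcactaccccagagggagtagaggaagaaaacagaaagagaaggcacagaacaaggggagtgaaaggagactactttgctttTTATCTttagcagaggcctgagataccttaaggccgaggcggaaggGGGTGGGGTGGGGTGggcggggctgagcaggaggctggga
In *Hbb-y* the single CACCC begins 111 bases before the start. In *Alas2* the reversed GATA motif begins at 86 bases and the 3 reversed CACCC motifs at 40, 35 and 30, side by side without overlap.

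Endothelial genes differed little, and none of the 11 separated the groups by the probe set that represents it. *Kdr*, which encodes the VEGF receptor VEGFR2, had the largest difference of the lineage, with log2 signals of 9.23, 9.21 and 8.80 in the *Ezh2* cko, against 8.87, 8.79 and 8.91 in controls. *Ezh2* cko replicate 3 lay among the controls and the other *Ezh2* cko arrays above them. The log2 difference was 0.23 (95% interval -0.05 to 0.50, adjusted p = 0.740), and 0.37 without *Ezh2* cko replicate 3 (adjusted p = 0.400). *Emcn*, which encodes the sialomucin endomucin, was also higher on *Ezh2* cko replicates 1 and 2 than on every control, but lowest of all on *Ezh2* cko replicate 3, at 8.73, 8.58 and 8.07 in the *Ezh2* cko, against 8.34, 8.33 and 8.42 in controls. *Egfl7*, which encodes a secreted protein of endothelium, was at 9.24, 9.16 and 8.98 in the *Ezh2* cko, against 9.02, 9.10 and 8.96 in controls, and all 4 of its probe sets had positive differences, of 0.04 to 0.15. By the probe set that represents each, the groups of both genes overlapped (adjusted p-values 0.931 and 0.852). Another probe set of *Egfl7*, with a difference of 0.15 (adjusted p = 0.763), had every *Ezh2* cko array above every control.

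*Tie1*, which encodes an orphan receptor of the angiopoietin pathway, had the most negative difference, -0.15 (adjusted p = 0.839). It was at 5.83, 5.73 and 5.73 in the *Ezh2* cko, against 5.74, 6.20 and 5.81 in controls, so that control replicate 2 alone was high. Its partner *Tek*, which encodes the angiopoietin receptor TIE2, had 0.07. The remaining members lay between -0.08 and 0.08. They were *Pecam1*, which encodes the adhesion protein CD31, *Flt1*, which encodes VEGFR1, *Esam*, which encodes a junctional adhesion protein, *Cldn5*, which encodes the main claudin of brain vessels, *Plvap*, which encodes a protein of fenestrae and caveolae, and *Ramp2*, which encodes a partner of the adrenomedullin receptor. Of the 4 probe sets of *Flt1*, 2 were higher and 2 lower, between -0.09 and 0.15. The 95% intervals of the 11 members reached no further than -0.43 and 0.50.

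*Ezh2* cko replicate 1 was the highest array for 7 of the 11 endothelial members, where it was the highest for 15.1% of all genes. The median log2 difference of the 11 genes was -0.01 without it, with 5 positive, and 0.10 without *Ezh2* cko replicate 3. It was 0.03 without *Ezh2* cko replicate 2, 0.02 without control replicate 1 and 0.10 without control replicate 2. The 30 other endothelial genes tested had a median of 0.07 with none past the adjusted p, and of -0.01 without control replicate 1. Of their 30 differences 21 were positive with all arrays and 13 without that one. Beside the endothelium, 10 genes of mural cells, the pericytes and smooth muscle that in the head come partly from neural crest, had a median of -0.04 and none passed. The median was 0.06 without *Ezh2* cko replicate 1, 0.0050 without control replicate 3, -0.11 without *Ezh2* cko replicate 3, -0.03 without *Ezh2* cko replicate 2 and -0.01 without control replicate 2. Among them *Pdgfrb*, which encodes the PDGF receptor of pericytes, was 0.35 higher in the *Ezh2* cko on the log2 scale (adjusted p = 0.586). *Acta2*, which encodes smooth muscle actin, had -0.42 (adjusted p = 0.355). Neither overlapped between the groups, and *Pdgfrb* was lowest on control replicate 1. Of the 10 mural genes, 3 were wholly higher and 2 wholly lower in the *Ezh2* cko, where 7.52% and 7.88% of all genes were. Those wholly higher, apart from *Pdgfrb*, were dim, with group means below 5.70, the median of all values. Those wholly lower lay above it. An unadjusted p under 0.05 from limma was found for 5 of the 10, where 8.87% of all genes had it. Of 10 genes of the blood-brain barrier none passed the adjusted p by the probe set that represents it, and 4 had a positive difference. Their median was -0.0093, or 0.03 without *Ezh2* cko replicate 3 and -0.07 without *Ezh2* cko replicate 1. The groups did not overlap for 3 of the 10, with 1 higher and 2 lower in the *Ezh2* cko, where 7.52% and 7.88% of all genes were. The 1 that was higher was *Ocln*. *Ocln*, which encodes a tight junction protein also made by epithelia, had a log2 difference of 1.08 (adjusted p = 0.0647), while its other probe set rose by 1.30 (adjusted p = 0.0273). Each of these probe sets met the methods' rule, and the study lists them as changed on these same arrays.

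**Figure D4:**
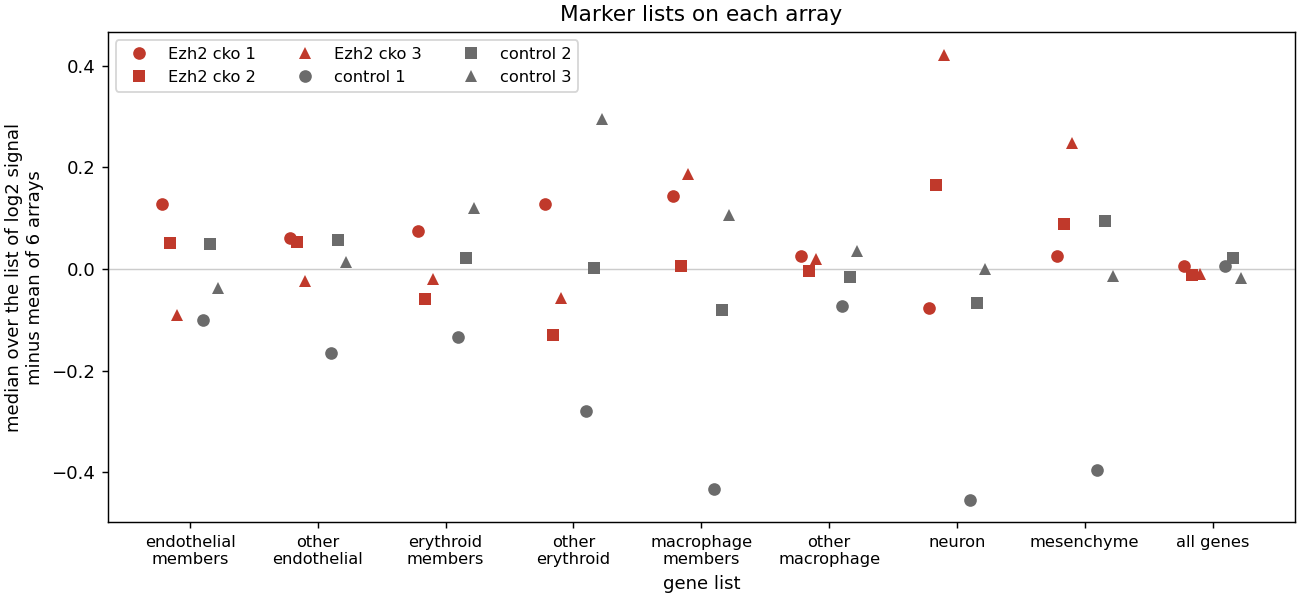
Median over each gene list (x axis) of the log2 signal minus the mean of the 6 arrays (y axis), on 3 *Ezh2* cko arrays (red) and 3 control arrays (grey), with marker shape giving the replicate number. Control replicate 1 is the lowest array in the 8 marker lists drawn, and control replicate 3 is the highest in both erythroid lists.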

How the data were processed

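Total RNA of E10.5 dorsal midbrain (3 *Ezh2* cko, 3 control) was hybridized to 1 array per sample. The deposited values are log2 signals that the submitters made with RMA, which corrects background, quantile-normalizes the arrays and summarizes each probe set. The background correction cannot be varied from these values. The RMA version is not given in the sources used here. The number of arrays limits the precision.

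The 64 control probe sets were left out and the other 45037 fitted in R 4.3.3 by lmFit and eBayes of limma 3.58.1, *Ezh2* cko minus control, with Benjamini-Hochberg adjustment over all probe sets. The platform's annotation gave 1 symbol for 34945 probe sets, several for 932 and none for 9160, and 34741 of the 34945 were updated through Entrez identifiers. The members and lists were chosen with earlier results of these data known. All members are named, with values per array for the 4 largest differences of each lineage, wide-ranging genes and globins. List genes are named only when past a threshold or needed to check a cell type, except *Pdgfrb*, *Acta2*, *Gp9*, *Treml1*, *Itga2b* and *Pf4*, chosen after their values were seen. Lists are described by counts and medians. The fit was tested on simulated data.

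Alternatives were the methods' t-test, array weights, a trended and robust prior, leaving out dim probe sets, median centring, cyclic loess, the replicate number as a block, each array left out, 2 other choices of probe set and the methods' threshold. Counts of positive differences and of groups without overlap were also made without each array, chosen after the data were seen.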

Additional observations from a re-analysis of the deposited data

How the results depend on the processing

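In none of the alternatives run did any of the 30 members pass the adjusted p, with limma or with the methods' t-test. Over all probe sets, 85 passed with all arrays, 0 with the methods' t-test (61 at the threshold of the methods and 3025 at an unadjusted p under 0.05) and 21 to 46 when single arrays were left out, from fewer samples. The replicate number as a block gave 59, and it changed no call of a member. Arrays of the same number did not deviate together (r of 0.06, -0.20 and 0.06 for numbers 1, 2 and 3), so the numbers were not taken as pairs. Of the members, 14 kept the sign of their difference in all alternatives and 16 did not. The t-test, the prior, the dim filter and the replicate block cannot change a difference. The macrophage median stayed positive, at 0.07 to 0.31, the endothelial ran between -0.01 and 0.10 and the erythroid between -0.17 and 0.05 as single arrays were left out. With the mean of all probe sets per member the macrophage median was 0.13 and the erythroid -0.08, and with array weights the erythroid was -0.10. The median difference of all probe sets was -0.019 as deposited, -0.016 with median centring and -0.0024 with cyclic loess. The deposited arrays were already quantile-normalized, so these scalings had little to move.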

Other observations

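Genes of megakaryocytes and platelets, which like the first red cells arise in the yolk sac, were measured for 8 of 10 listed. None of the 8 had a positive difference with all arrays, where 43.1% of all genes did, and 1 did without *Ezh2* cko replicate 1, without control replicate 1 or without control replicate 2. Their median log2 difference was -0.23, and between -0.28 and -0.16 without single arrays. None passed the adjusted p, and 4 of 8 had an unadjusted p under 0.05, where 8.87% of all genes did. *Gp9*, which encodes a subunit of the platelet receptor for von Willebrand factor, was at 6.39, 6.27 and 6.27 in the *Ezh2* cko, against 6.69, 6.65 and 6.65 in controls. Its log2 difference was -0.35 (limma adjusted p = 0.194), with every *Ezh2* cko array below every control. *Treml1*, which encodes a receptor of platelet granules, was at 6.90, 6.97 and 6.65 in the *Ezh2* cko, against 7.19, 7.11 and 7.12 in controls (log2 difference -0.30, limma adjusted p = 0.486). *Itga2b*, which encodes the platelet integrin alphaIIb, also had no overlap, with a log2 difference of -0.21 (limma adjusted p = 0.637). *Gp9*, *Treml1* and *Itga2b* were the 3 of 8 with every *Ezh2* cko array below every control, where 7.88% of all genes were. *Pf4*, which encodes platelet factor 4, overlapped between the groups, at 8.86, 9.12 and 9.39 in the *Ezh2* cko, against 9.26, 9.54 and 9.29 in controls. Of 10 granulocyte genes none had a positive difference and none passed the adjusted p, with a median of -0.06. Without single arrays up to 3 of them were positive and the median ran between -0.11 and -0.01.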
